A study of Homo sapiens with 14 samples.

Results

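The integrated stress response genes that depend on the transcription factor ATF4 were followed in HT-29 cells, an established human colorectal carcinoma line. The set was a list of 36 gene symbols, chosen with earlier results of these data known. The rows of the count table with these symbols were taken: 36 of 36555 gene IDs. The cells fell into 6 groups. Cells received TNF (labelled 100 ug/ml) with 20 uM liproxstatin-1 (2 libraries), TNF with 20 uM ferrostatin-1 (3 libraries), TNF alone (2 libraries), 20 uM liproxstatin-1 alone (2 libraries), 20 uM ferrostatin-1 alone (2 libraries) or 0.1% DMSO as control (3 libraries), and the compounds and TNF were left on for 72 h. TNF is a cytokine that drives inflammatory gene expression and can cause apoptosis, and the submitters used it to kill these cells. Ferrostatin-1 and liproxstatin-1 trap lipid radicals and block ferroptosis, a form of death by lipid peroxidation. Ferrostatin-1 is an ester of an aminobenzoic acid with a cyclohexylamine, and liproxstatin-1 a spiro-fused quinoxaline bearing a chlorobenzyl substituent. The question behind the design was why the inhibitors differ in their effect on the death that TNF causes.

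The integrated stress response is a shared reaction to amino acid shortage, misfolded protein in the endoplasmic reticulum, lack of haem and double-stranded RNA. Each is sensed by its own kinase. The kinases phosphorylate the translation factor eIF2alpha, which lowers protein synthesis in general while the ATF4 mRNA is translated more. ATF4 pairs with proteins of the C/EBP family and activates genes for amino acid synthesis and uptake, tRNA charging, feedback on eIF2alpha and, when stress lasts, cell death. Proliferating carcinoma cells use many of these genes for growth without added stress. RNA was measured here and protein was not, and ATF4 is regulated to a large part at translation.

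Total counts ran from 59913850 to 75838597 per library, and 22179 genes, among them all 36 members, passed the filter on low counts. The design calls the replicates technical, so the p-values below measure the spread between these libraries only. Levels are in CPM, a gene's count scaled to the size of its library after TMM normalization, and changes are on the log2 scale with a standard error (SE). A gene was called at an adjusted p below 0.05 in edgeR's quasi-likelihood test with Benjamini-Hochberg adjustment over all genes tested. Colon epithelial markers were present, with a summed level of 8879 to 13199 CPM over 10 genes in the 14 libraries, although CDX1 among them was close to 0. Of the leukocyte markers, PTPRC had 4 counts in control library 1 and 0 elsewhere, and CSF1R was below 1 CPM, but LYZ stood at 762 to 1137 CPM and CD14 at 8.29 to 12.6 CPM in every library. The summed level of the leukocyte list was 770.6 to 858 CPM in TNF+liproxstatin-1, 1003 to 1147 CPM in TNF+ferrostatin-1, 857 to 967 CPM in TNF, 966 to 1015 CPM in liproxstatin-1, 962 to 1028 CPM in ferrostatin-1 and 831 to 1117 CPM in control, nearly all of it LYZ, and its part in the results was not tested. The fibroblast list of 6 genes summed to 6.45 to 14.4 CPM in TNF+liproxstatin-1, 2.48 to 4.5 CPM in TNF+ferrostatin-1, 24.5 to 44.9 CPM in TNF, 4.45 to 14.2 CPM in liproxstatin-1, 10.0 to 16.4 CPM in ferrostatin-1 and 3.78 to 13.6 CPM in control. It was thus highest in both TNF libraries, where none of the 6 genes was at 0, and its part in the results with TNF alone was not tested. The endothelial list of 6 genes summed to 2.72 to 34.7 CPM in TNF+liproxstatin-1, 12.7 to 47.9 CPM in TNF+ferrostatin-1 and 9.09 to 9.85 CPM in TNF. Without TNF it summed to 1.07 to 15.2 CPM in liproxstatin-1, 1.08 to 39.5 CPM in ferrostatin-1 and 8.32 to 26.5 CPM in control. Its part in the results was not tested. Libraries 1 and 3 of TNF differed more from each other (chi-square of 226 per degree of freedom) than libraries of any other group did (16.1 to 82.5). The keratin KRT81 split groups too, with 13.5 and 1.85 CPM in TNF+liproxstatin-1, 1.47, 1.73 and 1.79 CPM in TNF+ferrostatin-1, 43.7 and 50.4 CPM in TNF, 1.05 and 14 CPM in liproxstatin-1, 57.1 and 1.45 CPM in ferrostatin-1 and 47.6 to 48.4 CPM in control. Ferrostatin-1 library 1 was thus close to the control libraries in this gene, and ferrostatin-1 library 3 close to TNF+ferrostatin-1. KRT7 split likewise, with 31.0 and 13.5 CPM in TNF+liproxstatin-1, 15.0, 13.9 and 11.6 CPM in TNF+ferrostatin-1 and 88.4 and 106 CPM in TNF. It had 13.1 and 28.8 CPM in liproxstatin-1, 100 and 9.51 CPM in ferrostatin-1 and 80.8 to 84.4 CPM in control. In both keratins every library of TNF with a compound lay below both TNF libraries, and the cause was not tested. Library numbers are those of the count columns.

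CHAC1 and ASNS show the sequence through which ATF4 is known to act, the C/EBP-ATF response element, so their promoters are printed with that of TRIB3 for contrast. They cover 250 bases before to 50 after the start of transcription, 5′ to 3′ on the gene's strand, from RefSeq on GRCh38.p14. Capitals mark a match to TGATGNAA, or TTNCATCA where it lies on the opposite strand, and TRIB3 has no match in this window. The other promoter of ASNS and the other promoters of TRIB3 had no match and are not printed.
CHAC1, chr15:40953221-40953520, plus strand: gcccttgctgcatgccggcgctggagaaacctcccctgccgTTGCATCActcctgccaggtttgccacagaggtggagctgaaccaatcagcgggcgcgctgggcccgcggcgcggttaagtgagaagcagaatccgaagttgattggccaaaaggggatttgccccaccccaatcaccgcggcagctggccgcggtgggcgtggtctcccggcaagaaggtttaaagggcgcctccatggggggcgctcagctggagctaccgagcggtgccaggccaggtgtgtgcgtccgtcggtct
ASNS, chr7:97872359-97872658, minus strand: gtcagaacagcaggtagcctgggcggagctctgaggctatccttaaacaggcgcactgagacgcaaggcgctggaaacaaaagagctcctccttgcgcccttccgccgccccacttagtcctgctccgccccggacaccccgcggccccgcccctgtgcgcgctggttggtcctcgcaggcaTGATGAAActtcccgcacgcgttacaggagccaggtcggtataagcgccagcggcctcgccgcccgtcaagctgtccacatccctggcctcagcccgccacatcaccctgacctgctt
TRIB3, chr20:381045-381344, plus strand: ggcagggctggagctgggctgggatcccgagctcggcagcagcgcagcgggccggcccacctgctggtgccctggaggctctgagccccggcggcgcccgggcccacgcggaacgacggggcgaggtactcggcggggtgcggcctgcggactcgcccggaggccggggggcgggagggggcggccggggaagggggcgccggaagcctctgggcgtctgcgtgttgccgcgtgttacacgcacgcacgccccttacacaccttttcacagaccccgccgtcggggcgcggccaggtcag

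RefSeq promoters were found for 28 of the 36 members, which have 45 promoters in all, since some genes have several starts. The motif was in 8 of these 45 promoters (17.8%), against 1270 of 35116 promoters of all genes (3.62%), with both strands searched. Each of the 8 sites is shown with its flanks, and the distance is that of its first printed capital from the start base of the promoter that holds it. The other promoters of ATF3, SLC1A5, ASNS, CEBPG, JDP2 and SLC1A4 had no match.
CHAC1 at -209, opposite strand: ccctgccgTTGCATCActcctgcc
ATF3 at -191: ggtcaggaTGATGGAAggctgtca
SLC1A5 at -97: gaagtggcTGATGCAAgctgtcca
ASNS at -68: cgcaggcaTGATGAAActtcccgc
CEBPG at -42: gcggcgtcTGATGCAAcctgccgg
JDP2 at -16: gccggggcTGATGCAAcccgtccc
SLC1A4 at -7, opposite strand: gctcccgtTTGCATCAtctccagc
SLC7A1 at 8: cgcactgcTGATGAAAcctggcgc
The cAMP response element TGACGTCA, a site for related factors, was in 1 of the 45 promoters (2.22%), that of PPP1R15A, against 649 of all promoters (1.85%). PPP1R15A held no match to the first motif. A match here describes letters and not binding.

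Measured per length, as mean FPKM in control cells, the members spanned a wide range of levels. The glutamine transporter SLC1A5 stood highest at 306.9 ± 21.3 FPKM (SD, n = 3). It was followed by ATF4 itself at 249 ± 30.4 FPKM and the leucine transporter SLC7A5 at 208 ± 59.7 FPKM, which overlapped within their spread. PSAT1 at 149.7 ± 33.0 FPKM and TRIB3 at 144 ± 61.6 FPKM came next and also lay within each other's spread. At the low end were STC2 at 0.107 ± 0.0581 FPKM, ALDH1L2 at 0.0724 ± 0.0215 FPKM and CBS at 0.0568 ± 0.0106 FPKM, with 32, 12 and 11 counts in their lowest library. CBS also has a near-identical copy in the genome, so its level is uncertain.

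The median over all 36 members set TNF with a compound, and a compound alone, apart from control. TNF alone overlapped control in it, and the compounds without TNF overlapped each other. Relative to the control mean it was -1.23 and -1.21 on the log2 scale in TNF+liproxstatin-1, -0.97, -0.84 and -0.98 in TNF+ferrostatin-1, -0.27 and -0.72 in TNF, 0.30 and 0.35 in liproxstatin-1, 0.41 and 0.35 in ferrostatin-1, and 0.14, -0.43 and 0.18 in control. All libraries that combined TNF with a compound lay below all others, and all libraries with a compound alone lay above the controls. Control library 2 was the lowest control for 33 of 36 members, and TNF library 3 was below TNF library 1 for 30 of 36. Neither count was made over all genes, so they do not set the members apart from other genes.

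**Figure D1:**
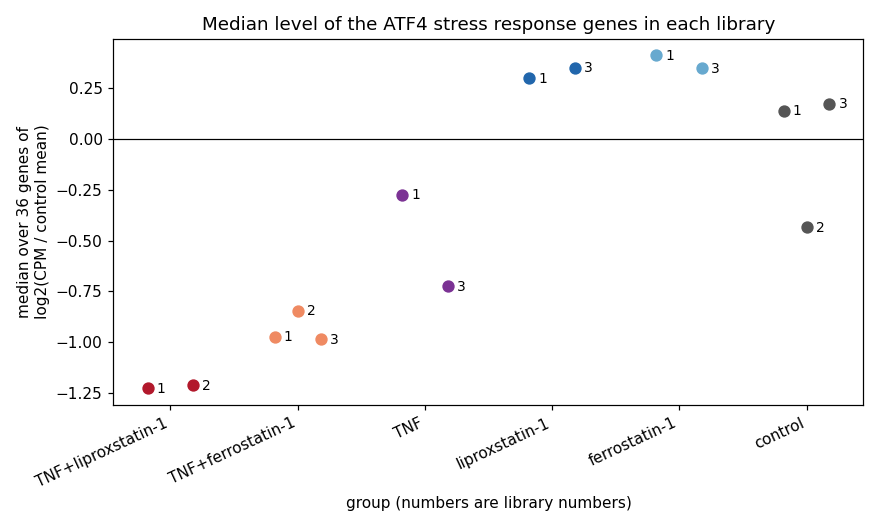
Median over the 36 genes of log2(CPM / mean of the control libraries), y axis, for each library (points, with library numbers) by group, x axis. Both TNF+liproxstatin-1 libraries lie near -1.2, the 3 TNF+ferrostatin-1 libraries between -0.98 and -0.84, and the TNF and control groups are spread.

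**Figure D2:**
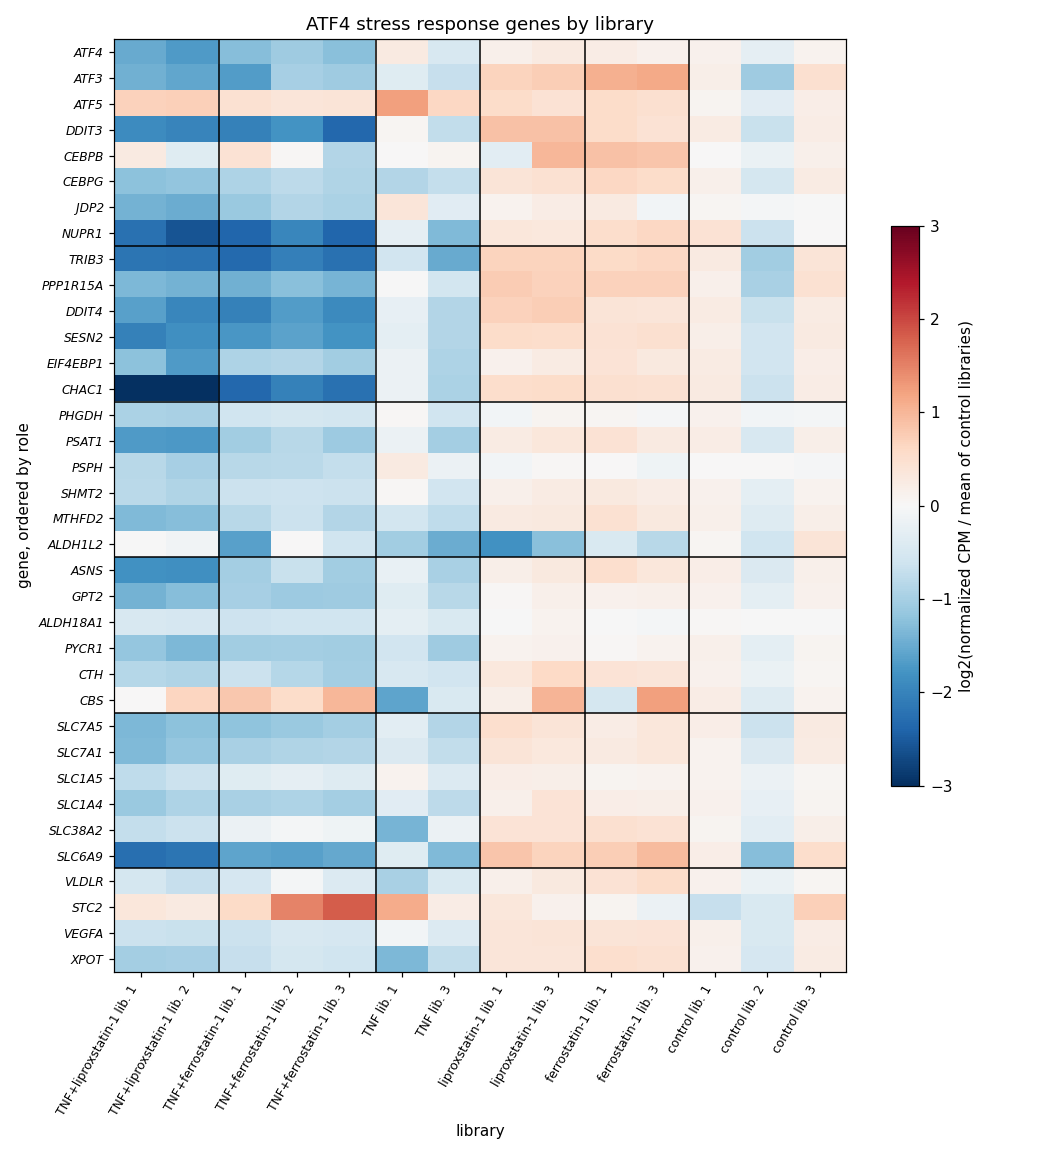
Each row is 1 gene, ordered by role, and each column 1 library; colour gives log2(CPM / mean of the control libraries), blue for lower and red for higher, and lines separate groups and roles. The 5 columns of TNF with a compound are blue for most genes, while ATF5, CBS and STC2 are not.

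Nearly the whole set was lower with TNF when either compound was present. With liproxstatin-1 in both arms 31 of 36 members fell and 0 rose, where 7.03% of all tested genes fell and 7.57% rose, and the median change was -1.51 (all genes 0.06). With ferrostatin-1 in both arms 30 of 36 fell and 0 rose, where 9.36% of all genes fell and 8.76% rose, and the median change was -1.18 (all genes 0.02). These 2 comparisons share no library, but they came from 1 model with a shared spread. The 30 members called with ferrostatin-1 (100% of that list) were all among the 31 called with liproxstatin-1 (96.8% of that list), SLC38A2 being the exception. Both lists hold most of the 36 members, so a large overlap was fixed in advance. In 28 of 36 members (77.8%) the 5 libraries of TNF with a compound lay below all 7 libraries without TNF, which held for 1990 of the genes tested (8.97%). The median change with TNF in ferrostatin-1 was -1.17 without ferrostatin-1 library 1 and -1.22 without ferrostatin-1 library 3. In bulk RNA, fewer cells of a type and less RNA per cell cannot be told apart.

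Among the transcription factors 6 of 8 fell in each of these comparisons. ATF4 (ENSG00000128272, chromosome 22, 39519672 to 39522683 in the deposited table) had 270.4 and 237 CPM in TNF+liproxstatin-1, 317, 365 and 319 CPM in TNF+ferrostatin-1, 917 and 552 CPM in TNF, 858 and 916 CPM in liproxstatin-1, 888 and 841 CPM in ferrostatin-1 and 839.9, 636 and 823 CPM in control. The 5 libraries with TNF and a compound were the lowest of all, and TNF library 1 was as high as the cells with a compound alone. The change with TNF was -1.81 ± 0.20 in liproxstatin-1 (SE, adjusted p = 0.000246), 3.5-fold lower, and -1.37 ± 0.18 in ferrostatin-1 (adjusted p = 0.000324), 2.59-fold lower.

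DDIT3 encodes CHOP, the factor that carries lasting stress towards apoptosis. It had 10.7 and 9.99 CPM in TNF+liproxstatin-1, 9.69, 11.4 and 7.78 CPM in TNF+ferrostatin-1, 41.3 and 23.8 CPM in TNF, 73.1 and 73.1 CPM in liproxstatin-1, 57.8 and 53.2 CPM in ferrostatin-1 and 47.2, 25.1 and 46.5 CPM in control. Its groups with TNF and a compound again lay below every other library. It changed by log2 -2.82 ± 0.32 in liproxstatin-1 (adjusted p = 0.000257) and -2.53 ± 0.27 in ferrostatin-1 (adjusted p = 9.81e-05).

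ATF3, a stress-induced repressor of the same family, had 7.78 and 7.12 CPM in TNF+liproxstatin-1, 6.66, 10.6 and 10.1 CPM in TNF+ferrostatin-1, 16.5 and 13.2 CPM in TNF, 33.4 and 35.3 CPM in liproxstatin-1, 44.5 and 46.6 CPM in ferrostatin-1 and 24.0, 10.0 and 29.4 CPM in control. Control library 2 fell within the range of TNF+ferrostatin-1 here, so these groups overlapped. The change with TNF was -2.20 ± 0.39 in liproxstatin-1 (adjusted p = 0.00322) and -2.32 ± 0.34 in ferrostatin-1 (adjusted p = 0.000697). NUPR1, a small stress-induced nuclear protein, changed by log2 -2.73 ± 0.38 and -2.80 ± 0.32, CEBPG, a C/EBP partner of ATF4, by -1.62 ± 0.19 and -1.46 ± 0.17, and JDP2, a repressor that dimerises with Jun, by -1.61 ± 0.20 and -1.08 ± 0.18, in liproxstatin-1 and in ferrostatin-1.

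All 6 regulators and feedback genes fell in both comparisons, and CHAC1 changed most of the 36 members with liproxstatin-1. CHAC1 (ENSG00000128965, chromosome 15, 40952962 to 40956512 in the deposited table) degrades glutathione, and it had 9.63 and 9.73 CPM in TNF+liproxstatin-1, 15.1, 18.8 and 16.2 CPM in TNF+ferrostatin-1, 68.2 and 39.6 CPM in TNF, 111 and 112 CPM in liproxstatin-1, 106 and 106 CPM in ferrostatin-1 and 91.8, 48.9 and 89.4 CPM in control. No library of TNF with a compound reached 20 CPM, and no library of a compound alone was below 100 CPM. It was 11.5-fold lower with TNF in liproxstatin-1 (log2 -3.52 ± 0.31, adjusted p = 4.02e-05) and 6.36-fold lower in ferrostatin-1 (log2 -2.67 ± 0.26, adjusted p = 4.68e-05).

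TRIB3, a pseudokinase that inhibits ATF4 and AKT, had 101 and 99.1 CPM in TNF+liproxstatin-1, 91.2, 112 and 97.5 CPM in TNF+ferrostatin-1, 310.4 and 162 CPM in TNF, 741 and 732 CPM in liproxstatin-1, 688 and 713 CPM in ferrostatin-1 and 561, 224 and 603 CPM in control. Every library of TNF with a compound was below the rest, and control library 2 was below TNF library 1. TRIB3 changed by log2 -2.88 ± 0.40 with TNF in liproxstatin-1 (adjusted p = 0.00083) and -2.80 ± 0.34 in ferrostatin-1 (adjusted p = 0.000224). DDIT4 and SESN2, which restrain the growth kinase mTORC1, changed by -2.49 and -2.49 in liproxstatin-1 and by -2.23 and -2.17 in ferrostatin-1. PPP1R15A, also called GADD34, which directs a phosphatase to eIF2alpha, changed by -2.11 and -2.05, and EIF4EBP1, a brake on cap-dependent translation, by -1.63 and -1.30, in liproxstatin-1 and in ferrostatin-1.

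**Figure D3:**
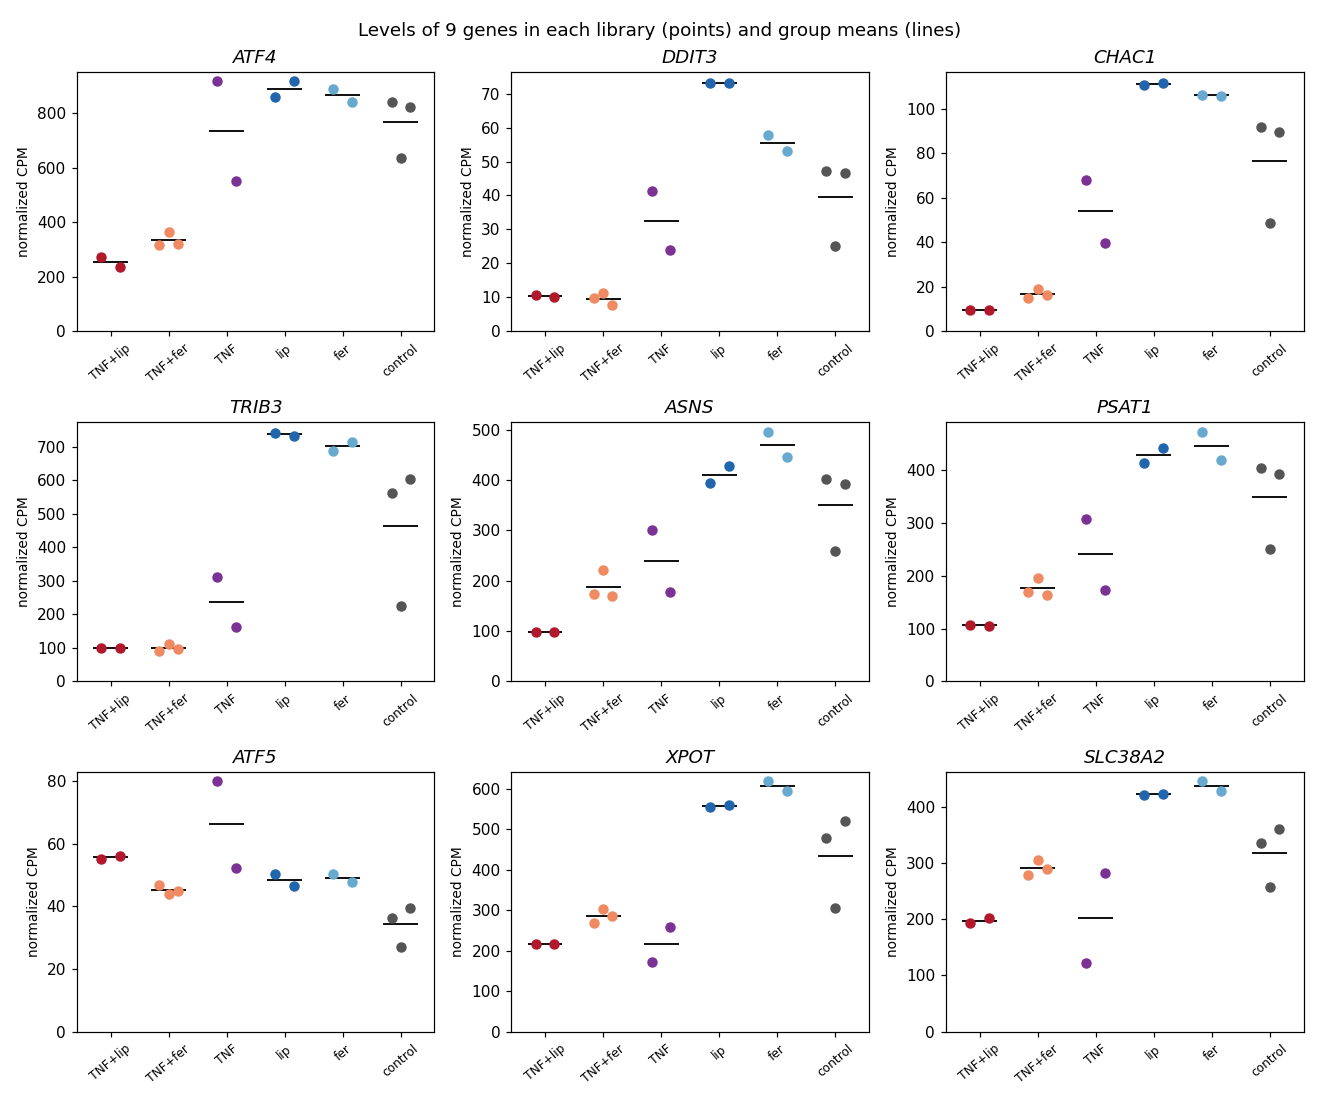
Normalized CPM (y axis, from 0) of 9 genes in each library (points) by group (x axis; lip is liproxstatin-1 and fer is ferrostatin-1), with the group mean as a line. ATF4, DDIT3 and CHAC1 are lowest in both groups of TNF with a compound, while ATF5 is highest and SLC38A2 lowest in TNF library 1.

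In serine synthesis and one-carbon metabolism 5 of 6 genes fell in both comparisons. PSAT1, the serine synthesis aminotransferase, had 108 and 105 CPM in TNF+liproxstatin-1, 170.2, 196 and 164 CPM in TNF+ferrostatin-1, 307 and 174 CPM in TNF, 414 and 443 CPM in liproxstatin-1, 473 and 419 CPM in ferrostatin-1 and 405, 251 and 392 CPM in control. TNF library 3 lay among the TNF+ferrostatin-1 libraries and library 1 among the controls. The change with TNF was -2.01 ± 0.26 in liproxstatin-1 (adjusted p = 0.000542) and -1.33 ± 0.22 in ferrostatin-1 (adjusted p = 0.00168). The mitochondrial folate enzyme MTHFD2 changed by -1.58 in liproxstatin-1 and -1.16 in ferrostatin-1. SHMT2, which splits serine to glycine in mitochondria, changed by -1.06 and -0.90, the first serine enzyme PHGDH by -0.97 and -0.56, and the last, PSPH, by -0.89 and -0.73, in liproxstatin-1 and in ferrostatin-1.

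Of the other amino acid synthesis genes 5 of 6 fell in both comparisons. ASNS, which makes asparagine, had 99.0 and 97.9 CPM in TNF+liproxstatin-1, 173, 221 and 169.6 CPM in TNF+ferrostatin-1, 300.1 and 178 CPM in TNF, 394 and 427 CPM in liproxstatin-1, 495 and 445 CPM in ferrostatin-1 and 402, 259.7 and 392 CPM in control. Both TNF+liproxstatin-1 libraries were below every other library, and TNF+ferrostatin-1 overlapped TNF. ASNS changed by log2 -2.06 ± 0.25 in liproxstatin-1 (adjusted p = 4e-04) and -1.32 ± 0.22 in ferrostatin-1 (adjusted p = 0.00148). The alanine transaminase GPT2 changed by -1.44 and -1.20, the proline enzymes PYCR1 by -1.35 and -1.11 and ALDH18A1 by -0.54 and -0.57, and the cysteine enzyme CTH by -1.35 and -1.22, in liproxstatin-1 and in ferrostatin-1.

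All 6 amino acid transporters fell with TNF in liproxstatin-1, and 5 of 6 in ferrostatin-1. The glycine transporter SLC6A9 had 6.89 and 7.28 CPM in TNF+liproxstatin-1 and 11.0, 10.7 and 11.4 CPM in TNF+ferrostatin-1, against 59.0 and 52.5 CPM in liproxstatin-1 and 54.9 and 63.6 CPM in ferrostatin-1. No library of TNF with a compound came near the level of a compound alone. Its change was -2.98 ± 0.47 in liproxstatin-1 (adjusted p = 0.0017) and -2.42 ± 0.39 in ferrostatin-1 (adjusted p = 0.0014). SLC7A5, the light chain of the LAT1 leucine exchanger, changed by -1.74 and -1.39, the arginine transporter SLC7A1 by -1.59 and -1.22, the neutral amino acid transporter SLC1A4 by -1.30 and -1.16, and SLC1A5 by -0.88 and -0.44, in liproxstatin-1 and in ferrostatin-1. The glutamine transporter SLC38A2 changed by -1.10 in liproxstatin-1 (adjusted p = 0.022) and stood at -0.58 in ferrostatin-1 (adjusted p = 0.137). The call of SLC38A2 in liproxstatin-1 ended without any 1 of the 4 libraries compared, and so did that of the lipoprotein receptor VLDLR. In ferrostatin-1 the calls of SLC1A5, PHGDH and VLDLR ended without at least 1 of the 5 libraries compared.

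In the last group VLDLR, the angiogenic factor VEGFA and the tRNA exporter XPOT fell in both comparisons. XPOT had 216 and 217 CPM in TNF+liproxstatin-1, 269, 303 and 286 CPM in TNF+ferrostatin-1, 172 and 259 CPM in TNF, 555 and 559 CPM in liproxstatin-1, 619 and 595 CPM in ferrostatin-1 and 479, 306 and 519 CPM in control. All libraries with TNF, alone or with a compound, were below the lowest control. The change of XPOT was -1.36 ± 0.22 in liproxstatin-1 (adjusted p = 0.00206) and -1.09 ± 0.20 in ferrostatin-1 (adjusted p = 0.00259), that of VEGFA -1.02 and -0.93, and that of VLDLR -0.83 and -0.81.

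The members not called in either comparison were ATF5, CEBPB, ALDH1L2, CBS and STC2. ATF5, a factor that induces mitochondrial chaperones under stress, had 55.2 and 56.2 CPM in TNF+liproxstatin-1 and 46.9, 44.1 and 44.9 CPM in TNF+ferrostatin-1, against 50.5 and 46.6 CPM in liproxstatin-1 and 50.2 and 47.9 CPM in ferrostatin-1. Its change with TNF was 0.20 in liproxstatin-1 (95% interval -0.22 to 0.62) and -0.12 in ferrostatin-1 (-0.50 to 0.27). CEBPB, an inflammatory C/EBP factor, varied within some groups. It had 108 and 69.5 CPM in TNF+liproxstatin-1 and 120.1, 90.9 and 48.9 CPM in TNF+ferrostatin-1. Without TNF it had 72.1 and 178 CPM in liproxstatin-1 and 165 and 159 CPM in ferrostatin-1. Its range was 89.8 to 95.3 CPM in TNF and 77.9 to 100 CPM in control. All TNF+ferrostatin-1 libraries were thus below both ferrostatin-1 libraries. With these groups fitted alone CEBPB was called lower, where 34.3% of all genes were called. ALDH1L2, CBS and the secreted glycoprotein STC2 had less than 3 CPM in every library. STC2 went the other way with TNF in ferrostatin-1, at 1.06 to 2.50 CPM against 0.627 to 0.746 CPM. Its log2 change of 1.42 was not called in the main fit. It was called higher with a stricter filter (29.1% of all genes called), DESeq2 (24.4%) and limma voom (32.6%). The same held with the compared groups fitted alone (34.3%) and without TNF+ferrostatin-1 library 1 (12.8%).

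**Figure D4:**
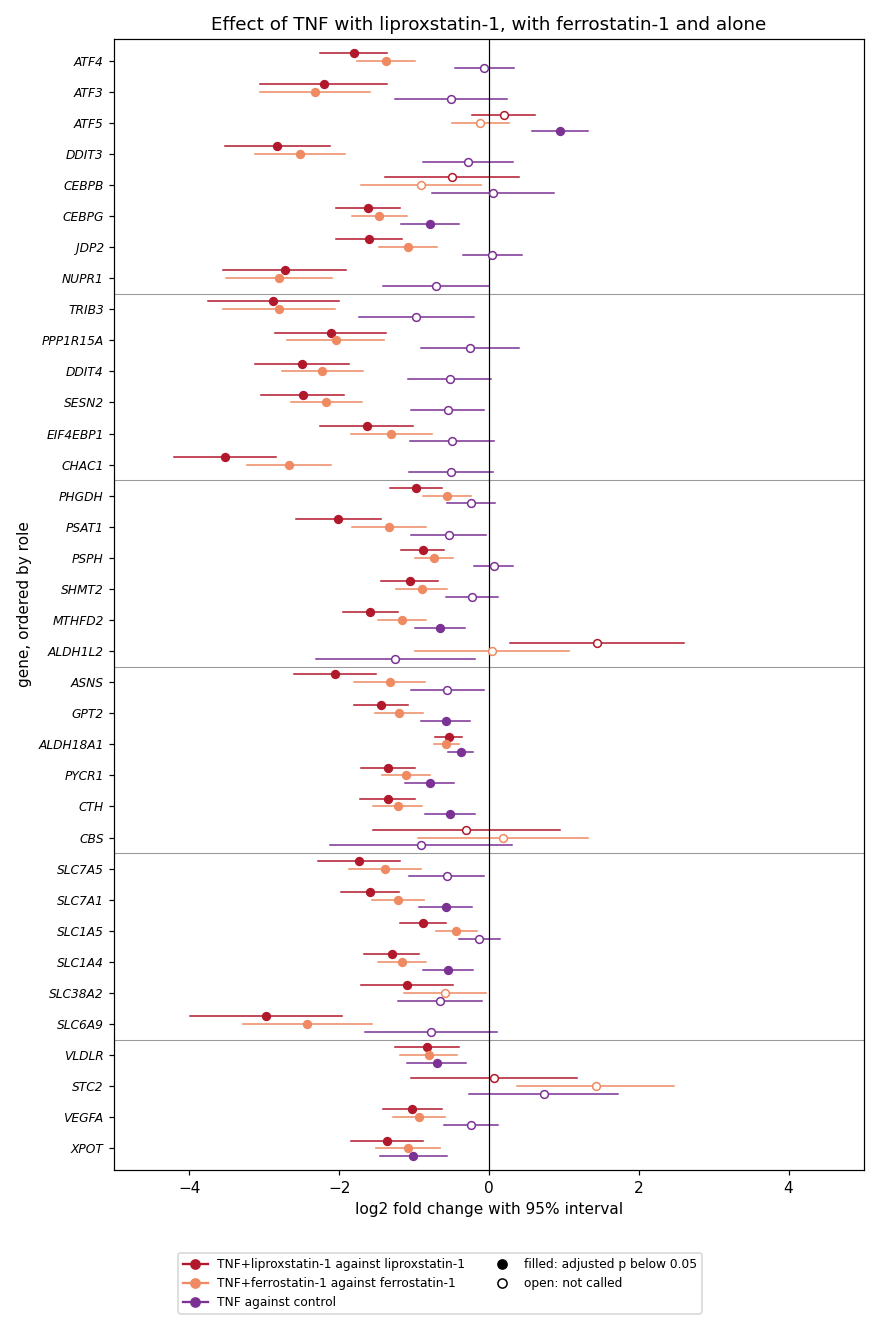
Log2 fold change (points) with its 95% interval (lines), x axis, for each of the 36 genes, y axis, for TNF+liproxstatin-1 against liproxstatin-1, TNF+ferrostatin-1 against ferrostatin-1 and TNF against control; filled points passed an adjusted p below 0.05. The filled points of the comparisons with a compound lie left of 0, and ATF5 is the only filled point right of 0, with TNF alone.

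With TNF alone 11 members were called. Against control 10 members fell and 1 rose, where 6.44% of all genes fell and 8.24% rose, with a median of -0.53 (all genes -0.02). ATF4 stood at -0.06 ± 0.18 (adjusted p = 0.869), DDIT3 at -0.28 ± 0.27 (0.541), CHAC1 at -0.51 ± 0.26 (0.209), TRIB3 at -0.97 ± 0.35 (0.0856) and ATF3 at -0.51 ± 0.34 (0.352), with the adjusted p in brackets, and none of the 6 regulators was called. ASNS stood at -0.56 ± 0.22 (adjusted p = 0.118) and PSAT1 at -0.54 ± 0.23 (adjusted p = 0.138).

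The called members were spread over metabolism, transport and factors. ATF5 rose, with 80.3 and 52.5 CPM in TNF against 36.4, 27.2 and 39.4 CPM in control, a change of 0.95 ± 0.17 (adjusted p = 0.00408). XPOT changed by log2 -1.01 ± 0.20 (adjusted p = 0.00738). PYCR1 had 179.9 and 128 CPM in TNF against 297, 219 and 283 CPM in control and changed by log2 -0.79 ± 0.15 (adjusted p = 0.00536). The other falls were those of CEBPG (-0.79), VLDLR (-0.70), MTHFD2 (-0.65), GPT2 (-0.58), SLC7A1 (-0.58), SLC1A4 (-0.54), CTH (-0.52) and ALDH18A1 (-0.38), on the log2 scale. ATF5, PYCR1, XPOT and ALDH18A1 were called whichever single library was left out, and none of the 11 was called when the 2 groups were fitted alone.

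These values rest on libraries that disagreed. TNF library 1 lay inside or above the range of the controls for 23 of 36 members, whereas TNF library 3 lay below all controls for 29. These counts too were made for the members only, and the share over all genes was not counted. The reverse order, library 1 below library 3, held for CEBPB, CEBPG, CBS, SLC38A2, VLDLR and XPOT. SLC38A2 had 122 and 282 CPM in TNF against 336, 257 and 361 CPM in control. The count of called members was 5 without control library 1 or 3, where 8% and 9.06% of all genes were called, 23 without control library 2 (15.5% of all genes) and 17 without TNF library 1 (9.31%). Without TNF library 3 it was 9, 2 higher and 7 lower, where 31.2% of all genes were called, so the members were then not called more often than all genes.

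Adding a compound to TNF went with lower levels of several stress factors. TNF+ferrostatin-1 had 9 members lower and 0 higher than TNF, where 3.75% of all genes were lower and 1.77% higher, with a median of -0.42 (all genes -0.01). TNF+liproxstatin-1 had 5 members lower and 0 higher, where 0.104% of all genes were lower and 0.239% higher, with a median of -0.69 (all genes 0.01). Both comparisons use the same 2 TNF libraries, so they are not independent. CHAC1 changed by log2 -2.48 ± 0.30 with liproxstatin-1 (adjusted p = 0.00757) and -1.69 ± 0.25 with ferrostatin-1 (adjusted p = 0.00895), and ATF4 by -1.53 ± 0.20 (adjusted p = 0.0131) and -1.14 ± 0.18 (adjusted p = 0.0102).

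JDP2 changed by -1.50 with liproxstatin-1 and -1.02 with ferrostatin-1, SESN2 by -1.39 and -1.16, and PSPH by -0.97 and -0.86. PSPH had 54.4 and 48.5 CPM in TNF+liproxstatin-1 and 53.7, 54.6 and 58.5 CPM in TNF+ferrostatin-1, against 116 and 85.6 CPM in TNF. The TNF libraries of PSPH lay on either side of the controls, which had 97.6, 97.2 and 94.1 CPM. DDIT3 changed by -1.76 ± 0.27 with ferrostatin-1 (adjusted p = 0.0102) and stood at -1.66 ± 0.31 with liproxstatin-1 (adjusted p = 0.0504). With ferrostatin-1, DDIT4 (-1.33), NUPR1 (-1.53) and PPP1R15A (-1.11) were called too, whereas with liproxstatin-1 they stood at -1.26, -1.70 and -1.13 and were not.

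TRIB3 stood at -1.24 ± 0.38 with liproxstatin-1 (adjusted p = 0.106) and -1.24 ± 0.34 with ferrostatin-1 (adjusted p = 0.0525). ASNS stood at -1.28 ± 0.25 (adjusted p = 0.0556) and -0.35 ± 0.22 (adjusted p = 0.328), PSAT1 at -1.18 ± 0.25 (adjusted p = 0.0623) and -0.44 ± 0.23 (adjusted p = 0.219), and ATF3 at -1.0 ± 0.38 (adjusted p = 0.154) and -0.70 ± 0.34 (adjusted p = 0.196), with liproxstatin-1 and with ferrostatin-1. No transporter, no other amino acid synthesis gene and none of VLDLR, STC2, VEGFA and XPOT was called in either comparison. Without TNF library 3 there were 25 called members with liproxstatin-1 (24 lower), where 28.7% of all genes were called, and 27 with ferrostatin-1 (23 lower), where 31.2% were. Without TNF library 1 they were 4 and 5, with 1.51% and 2.49% of all genes called. Leaving out TNF+liproxstatin-1 library 1 or 2 gave 0 called members, where 0.0254% and 0.017% of all genes were called. Leaving out TNF+ferrostatin-1 library 1, 2 or 3 gave 4, 4 or 2, where 0.866%, 0.313% and 0.468% of all genes were called. The calls of ATF4 and DDIT3 with ferrostatin-1 ended without TNF+ferrostatin-1 library 3.

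**Figure D5:**
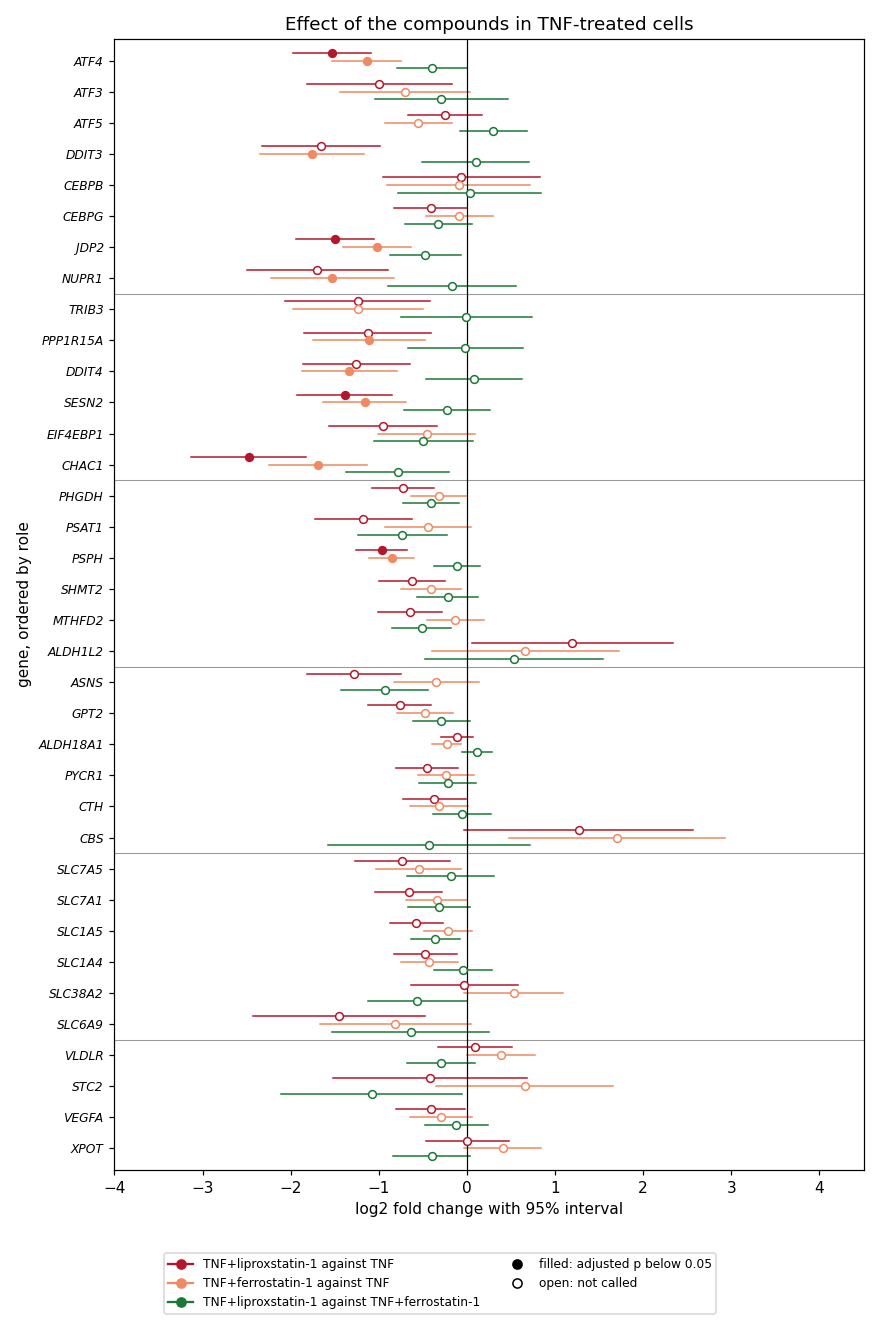
Log2 fold change (points) with its 95% interval (lines), x axis, for each of the 36 genes, y axis, for TNF+liproxstatin-1 against TNF, TNF+ferrostatin-1 against TNF and TNF+liproxstatin-1 against TNF+ferrostatin-1; filled points passed an adjusted p below 0.05. Filled points are 5 and 9 for the first and the second, among them CHAC1 and ATF4 in both, and none for the third.

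Without TNF neither compound changed a member past the threshold, although 34 of 36 members with liproxstatin-1 and 32 of 36 with ferrostatin-1 had a positive change. The share of positive changes was not counted over all genes, whose median change was -0.02 with liproxstatin-1 and -0.01 with ferrostatin-1. With liproxstatin-1 0 of 36 were called by edgeR's quasi-likelihood test (10 at an unadjusted p below 0.05, of which 9 higher), where 0.0541% of all genes rose and 0.00451% fell, and 5.19% were higher and 6.79% lower at an unadjusted p below 0.05. The median was 0.34, and 24 members had both liproxstatin-1 libraries above all controls, where 17.8% of all genes did. With ferrostatin-1 0 of 36 were called (10 at an unadjusted p below 0.05, all higher), where 0.185% of all genes rose and 0.379% fell, and 4.7% were higher and 7.59% lower at an unadjusted p below 0.05. The median was 0.385, and 26 members had both ferrostatin-1 libraries above all controls, where 17.7% of all genes did. These comparisons share the 3 control libraries, of which library 2 was the lowest for 33 of 36 members.

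DDIT3 stood at 0.88 ± 0.27 with liproxstatin-1 (adjusted p = 0.222) and 0.49 ± 0.27 with ferrostatin-1 (adjusted p = 0.513), and ATF3 at 0.70 ± 0.33 (adjusted p = 0.433) and 1.11 ± 0.33 (adjusted p = 0.175). ATF4 stood at 0.21 (95% interval -0.18 to 0.60) with liproxstatin-1 and 0.17 (-0.22 to 0.57) with ferrostatin-1. CHAC1 stood at 0.54 and 0.47, TRIB3 at 0.67 and 0.60, ASNS at 0.23 and 0.42, and PSAT1 at 0.29 and 0.35, with liproxstatin-1 and with ferrostatin-1. Without control library 2 the medians were 0.16 with liproxstatin-1 and 0.21 with ferrostatin-1. DESeq2 called 0 members with liproxstatin-1 and 2 with ferrostatin-1, where it called 2.45% and 4.81% of all genes. Limma voom called 7 members with each compound, where it called 6.6% of all genes with liproxstatin-1 and 7.23% with ferrostatin-1.

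The compounds were also set against each other, at equal dose and time, in 2 pairs: without TNF and with it. Without TNF 0 of 36 members were called between liproxstatin-1 and ferrostatin-1 (0 at an unadjusted p below 0.05, and 0 with DESeq2 or limma voom), where 0.0857% of all genes were higher with liproxstatin-1 and 0.018% lower, and 3.68% and 2.83% at an unadjusted p below 0.05. The median was 0.02, and p-values were adjusted over all genes within each pair. ATF4 differed by 0.04 (95% interval -0.39 to 0.47), DDIT3 by 0.40 (-0.25 to 1.05), CHAC1 by 0.07 (-0.54 to 0.68), TRIB3 by 0.07 (-0.74 to 0.89), ASNS by -0.20 (-0.72 to 0.33), PSAT1 by -0.06 (-0.60 to 0.48) and ATF3 by -0.41 (-1.21 to 0.40).

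With TNF the 2 compounds again had 0 of 36 members called (9 at an unadjusted p below 0.05, all lower with liproxstatin-1), where 0.681% of all genes were higher and 0.0857% lower, and 2.73% lower at an unadjusted p below 0.05. The median was -0.29 (all genes 0.00), and 22 members had both TNF+liproxstatin-1 libraries below all 3 TNF+ferrostatin-1 libraries, where 15.9% of all genes did. ASNS was at -0.93 ± 0.23 (95% interval -1.43 to -0.44, adjusted p = 0.121), CHAC1 at -0.79 ± 0.27 (-1.37 to -0.21, adjusted p = 0.342), PSAT1 at -0.73 ± 0.23 (-1.24 to -0.23, adjusted p = 0.286) and ATF4 at -0.40 ± 0.18 (-0.79 to 0.00, adjusted p = 0.589). TRIB3 at -0.01 (-0.75 to 0.74), DDIT3 at 0.10 (-0.50 to 0.71) and ATF3 at -0.29 (-1.05 to 0.46) had intervals on both sides of 0. ASNS, PSAT1 and CHAC1 were among 10 members called when these groups were fitted alone, where 2.86% of all genes were called. Limma voom called 6 members (3.67% of all genes) and DESeq2 1 (2.18%).

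Whether TNF acted differently with a compound than without was tested as an interaction. With liproxstatin-1 0 of 36 members were called (29 at an unadjusted p below 0.05, 28 of them lower), where 0% of all genes were called in either direction and 10.2% were lower and 9.28% higher at an unadjusted p below 0.05. With ferrostatin-1 0 of 36 were called (25 at an unadjusted p below 0.05, all lower), where 0.00451% of all genes were called higher and 0% lower, and 10.8% were lower and 8.34% higher at an unadjusted p below 0.05. The medians were -0.90 and -0.74 (all genes 0.08 and 0.04). CHAC1 was at -3.01 ± 0.38 for liproxstatin-1 (adjusted p = 0.0519) and -2.16 ± 0.36 for ferrostatin-1 (adjusted p = 0.0544), DDIT3 at -2.54 ± 0.41 (0.0821) and -2.25 ± 0.38 (0.057), and ATF4 at -1.74 ± 0.27 (0.0754) and -1.31 ± 0.25 (0.0816), with the adjusted p in brackets. DESeq2 called 26 members for liproxstatin-1 and 14 for ferrostatin-1, where it called 9.31% and 9.23% of all genes. Without TNF library 3 the count was 28 for each compound, 27 lower and 1 higher, where 26% of all genes were called in each interaction. Without TNF library 1 the counts were 7 and 4 (1.01% and 0.918% of all genes), and without control library 2 they were 4 and 4 (0.0817% and 0.173%).

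Another 52 genes of the same pathway, 51 of them tested, were read in the same fits. This list too was written with earlier results of these data known. With TNF in liproxstatin-1 19 fell and 1 rose, where 7.03% of all genes fell and 7.57% rose, and with TNF in ferrostatin-1 20 fell and 3 rose, where 9.36% fell and 8.76% rose. The few that rose were no larger a share than among all genes. Of 12 cytosolic tRNA synthetases, which load amino acids onto tRNA, 9 and 8 fell, with the glycine enzyme GARS1 at -1.57 ± 0.16 (adjusted p = 9.66e-05) and -1.24 ± 0.14 (adjusted p = 0.000112). GARS1 had 168 and 172 CPM in TNF+liproxstatin-1 and 207, 230.2 and 209 CPM in TNF+ferrostatin-1, against 502 and 509 CPM in liproxstatin-1 and 529 and 492 CPM in ferrostatin-1. GDF15, a secreted stress cytokine, had 176 and 176 CPM in TNF+liproxstatin-1 and 126, 142 and 138 CPM in TNF+ferrostatin-1, against 937 and 900.4 CPM in liproxstatin-1 and 676 and 686 CPM in ferrostatin-1. Both genes were lower in every library of TNF with a compound than in any library of a compound alone. GDF15 changed by log2 -2.38 ± 0.31 in liproxstatin-1 (adjusted p = 0.000615) and -2.33 ± 0.27 in ferrostatin-1 (adjusted p = 0.000162), and the leucine transporter SLC43A1 by -1.73 and -1.47. The cysteine synthetase CARS1 changed by -1.40 and -0.91, and HERPUD1, of the clearance of misfolded protein, by -1.23 and -1.06. ERO1A, which forms disulfide bonds, rose by 0.54 and 0.71, and SQSTM1, the autophagy receptor p62, rose by 0.54 in ferrostatin-1.

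With TNF alone 13 of the 51 fell and 3 rose against control, where 6.44% of all genes fell and 8.24% rose, so the share that rose was again below that of all genes. The falls with the smallest p-values were those of the synthetases GARS1 (-1.03 ± 0.14, adjusted p = 0.000684) and IARS1 (-1.40 ± 0.26, adjusted p = 0.00417), the cystine importer SLC7A11 (-1.82) and the receptor CCPG1 (-1.93). SQSTM1 rose by 1.32 ± 0.12 (adjusted p = 2.72e-05), with 2338 and 1780.5 CPM in TNF against 854, 725 and 896 CPM in control, the apoptosis gene BBC3 by 0.68 and ERO1A by 0.52. The TNF libraries were again apart, IARS1 standing at 136 and 284 CPM in TNF against 615, 415 and 628 CPM in control. Ferrostatin-1 added to TNF gave 6 lower and 1 higher, where 3.75% of all genes were lower and 1.77% higher, with the DNA damage gene GADD45A at -0.74, the alanine synthetase AARS1 at -0.70, the phosphatase subunit PPP1CA at -0.46 and GDF15 at -1.05 among the lower. Liproxstatin-1 added to TNF gave 1 lower, CARS1 (-0.93 ± 0.16, adjusted p = 0.0392), where 0.104% of all genes were lower. Of the single compounds, ferrostatin-1 raised SQSTM1 (0.62 ± 0.12, adjusted p = 0.0471), and no other of the 51 was called, where 0.185% of all genes were higher with ferrostatin-1. The comparisons between the compounds and both interactions called 0 of 51.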

How the data were processed

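Libraries of poly(A) RNA from HT-29 cells kept strand by dUTP marking and were read in paired ends on a NovaSeq, per the labels' protocols. In the deposited file each of 36555 gene IDs has a whole-number count for 14 libraries, made by the authors. Deposited FPKM values stand beside the counts, and those of control served only to order levels between genes. The submitters' processing notes list HISAT2 2.0.4, StringTie 1.3.4d, cutadapt 1.9, DESeq2 and edgeR without saying what each did. Genome build, annotation, counting program and strand setting: not given in the sources used here. Values of overlapping, antisense and near-identical genes are therefore uncertain.

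Labels gave the groups. Count columns numbered 1 and 3 in ferrostatin-1, liproxstatin-1 and TNF stand against titles numbered 1 and 2, so they were assigned to groups and not to single titles. Where 4 groups have 2 libraries, the design names 3 technical replicates.

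TMM scaling (factors 0.947 to 1.05), filterByExpr and the quasi-likelihood test were run in edgeR 4.0.16 with R 4.3.3. Every comparison (9 of groups, 2 interactions) came from 1 model of the 6 groups, so all groups share the spread, and adjustment (Benjamini-Hochberg, threshold 0.05) was over the 22179 genes tested. SE was the log2 change over the square root of F, and 95% intervals rest on it, both approximate. The test was checked on simulated counts with the same spread in every group. That check cannot speak for the TNF libraries, which differed more from each other than those of other groups. As alternatives, DESeq2 1.42.0, voom with quality weights in limma 3.58.1, RLE scaling, no filter, a filter of CPM 1 in 3 libraries, a fit of the compared groups only, a replicate block and the omission of each library were tried. Members, lists and tests were chosen with earlier results of these data known. The rule for names took ATF4, ATF3, DDIT3, CHAC1, TRIB3, ASNS and PSAT1 always, then up to 8 called members and up to 4 called genes of the wider pathway in each direction by p. Other members are named to account for the set. Depth limits ALDH1L2, CBS and STC2 most, and all intervals and tests cover these libraries only. The level of 1 leukocyte marker is not reported here.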

Additional observations from a re-analysis of the deposited data

How the results depend on the processing

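The comparisons of TNF with a compound against that compound were steady in the members, though not in the share of all genes called. With the alternatives that keep all libraries 29 to 33 members were called in ferrostatin-1 (9.3% to 34.3% of all genes) and 29 to 31 in liproxstatin-1 (7.23% to 30.9%). With 1 library left out they were 27 to 29 in ferrostatin-1 (7.93% to 13%) and 29 in liproxstatin-1 (5.63% to 6.29%). In ferrostatin-1 at most 1 of them, STC2, was called higher. With 1 library left out, the median change ran from -1.22 to -1.14 in ferrostatin-1 and from -1.53 to -1.46 in liproxstatin-1. Comparisons and interactions that use the libraries of TNF alone were not steady. For each compound against control, and for the compounds against each other with TNF, the count changed with the fitting method but not with the omission of a library. The causes were not tested. Leaving out 1 library gave 5 to 23 called members for TNF against control, 2 to 27 for TNF+ferrostatin-1 against TNF, 0 to 25 for TNF+liproxstatin-1 against TNF, 0 to 28 for each interaction, and 0 to 0 for each compound against control and for the compounds against each other. Leaving out TNF library 3, which gave the 25, 27 and 28, also called 26% to 31.2% of all genes in the comparisons and interactions that use TNF alone.

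The share of all genes called stands in brackets. DESeq2 called 2 members for ferrostatin-1 against control (4.81%), 22 for TNF+liproxstatin-1 against TNF (18.1%), 1 for TNF+liproxstatin-1 against TNF+ferrostatin-1 (2.18%), and 26 (9.31%) and 14 (9.23%) for the liproxstatin-1 and ferrostatin-1 interactions. Limma voom called 3 for TNF against control (6.83%), 7 for liproxstatin-1 (6.6%) and 7 for ferrostatin-1 (7.23%) against control, 0 for TNF+ferrostatin-1 against TNF (0.0631%), 6 for TNF+liproxstatin-1 against TNF+ferrostatin-1 (3.67%) and 6 for the liproxstatin-1 interaction (0.933%). Fitting the compared groups alone called 0 for TNF against control (1.95%), 0 for liproxstatin-1 (0%) and 0 for ferrostatin-1 (0.0542%) added to TNF, and 10 between the compounds with TNF (2.86%). The stricter filter called 1 (0.0201%) and 2 (0.248%) for the liproxstatin-1 and ferrostatin-1 interactions, and using no filter called 1 for the liproxstatin-1 interaction (0.00562%).

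Library numbers did not pair the samples (correlation of deviations -0.0962 to 0.0191). With the replicate block 2 members were called for TNF+liproxstatin-1 against TNF (0.0857%) and 5 for TNF+ferrostatin-1 against TNF (1.33%), and TRIB3 turned to 0.0141 for TNF+liproxstatin-1 against TNF+ferrostatin-1. The other counts stayed within 1.5 times.

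Of 86 calls in single comparisons, 86 held with DESeq2 and with the stricter filter, 85 with relative log expression scaling, 83 with no filter, 74 with the block, 68 with voom and 61 with the compared groups alone, and 0 turned round. Leaving out 1 library kept 325 of 394. Signs turned only at values that were not called. With 1 library left out, ATF4 for TNF against control ran from -0.4715 (without TNF library 1) to 0.2571 (without TNF library 3), with 0.0093 without control library 1, and DDIT3 from -0.7303 to 0.0597. For TNF+ferrostatin-1 against TNF, PSAT1 ran from -0.7977 to 0.0239 and ASNS from -0.6748 to 0.0781, positive without TNF library 1. For liproxstatin-1 against ferrostatin-1, ATF4 ran from -0.0136 to 0.0842, with -0.0017 without ferrostatin-1 library 3, and PSAT1 from -0.1426 to 0.0311. For TNF+liproxstatin-1 against TNF+ferrostatin-1, DDIT3 ran from -0.0311 to 0.2295 and TRIB3 from -0.0701 to 0.0707, and TRIB3 was 0.0125 with voom.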

Other observations

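The kinases that phosphorylate eIF2alpha were measured too. EIF2AK2, the kinase for double-stranded RNA and an interferon-induced gene, had 319 and 343 CPM in TNF+liproxstatin-1, 359, 354 and 371 CPM in TNF+ferrostatin-1 and 170.3 and 322 CPM in TNF, against 214 and 216 CPM in liproxstatin-1, 176 and 211 CPM in ferrostatin-1 and 165, 156 and 186 CPM in control. TNF library 1 lay with the cells that received no TNF, and TNF library 3 with those that received TNF and a compound. EIF2AK2 rose with TNF in ferrostatin-1 by log2 0.90 ± 0.20 (adjusted p = 0.0093 by edgeR's quasi-likelihood test) and stood at 0.62 ± 0.22 in liproxstatin-1 (adjusted p = 0.0777). EIF2AK3, the kinase of the endoplasmic reticulum, fell with TNF alone, with a log2 change of -1.03 ± 0.25 (adjusted p = 0.0197), with 8.71 and 17.4 CPM in TNF against 24.8, 23.9 and 31.2 CPM in control. EIF2AK1, the haem-regulated kinase, was higher by log2 0.35 ± 0.07 when ferrostatin-1 was added to TNF (adjusted p = 0.0223), at 319, 308 and 304 CPM in TNF+ferrostatin-1 against 236 and 251 CPM in TNF. The control libraries had 285 to 300 CPM and those of ferrostatin-1 289 to 296 CPM. Both TNF libraries were thus below these groups as well. EIF2AK4, the kinase for amino acid shortage, had 82.1 and 85.9 CPM in TNF+liproxstatin-1, 83.0, 80.5 and 82.2 CPM in TNF+ferrostatin-1 and 49.0 and 77.3 CPM in TNF, against 74.6 and 67.9 CPM in liproxstatin-1, 73.2 and 70.4 CPM in ferrostatin-1 and 68.9, 66.7 and 61.6 CPM in control. It was called in none of the 11 comparisons, standing at log2 0.24 ± 0.16 with TNF in liproxstatin-1 (adjusted p = 0.393), 0.19 ± 0.15 with TNF in ferrostatin-1 (adjusted p = 0.448) and -0.06 ± 0.15 with TNF alone (adjusted p = 0.85).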
